A study of Mus musculus with 6 samples.

Results

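The genes described here make sterols and fatty acids. They were picked by symbol, as a list of 34 enzymes and regulators with 24 of the sterol branch and 10 of the fatty acid branch. Of these, 33 have a row in the deposited table of 13940 gene symbols. Tm7sf2, a sterol reductase, has no row and is not analysed here. All 3-day and 7-day libraries came from the injury site of the spinal cord after a T8 contusion in mice labelled strain CD45.1 and genotype LysMCre:Rplfl/fl > CD45.1 chimera, a notation for CD45.1 hosts with donor cells in which Cre switches on a tagged ribosomal protein. LysM-Cre, a Cre recombinase driven by the lysozyme M promoter, is active in macrophages, monocytes and neutrophils, so the tag is not limited to macrophages, and in such a chimera the cells of the host carry no tag. Tagged ribosomes were precipitated (RiboTag) and the bound RNA was sequenced, in 3 libraries at 3 days and 3 libraries at 7 days after injury. The samples hold neither intact cord nor input RNA taken before precipitation, and the labels give neither age nor sex nor the number of animals behind a library. The p-values therefore measure the spread between these libraries, which may be technical.

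Cholesterol is built from acetyl-CoA through mevalonate, isoprenoid units, squalene and lanosterol, and fatty acids are built from the same acetyl-CoA through malonyl-CoA and palmitate. Both branches are switched on by SREBP transcription factors, which are held in the endoplasmic reticulum by Insig proteins and carried to the Golgi by Scap when sterol is scarce. Macrophages that take up lipid-rich debris are known to receive cholesterol from outside, and oligodendrocytes are known as strong makers of cholesterol for myelin.

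Values are FPKM, fragments scaled to transcript length and to the mapped fragments of a library, so that levels can be compared between genes. A gene was called when the limma test of log2(FPKM + 1), 7 days minus 3 days, gave a Benjamini-Hochberg adjusted p of 0.05 or less over the 13042 genes tested. Means are given ± SD with n = 3 libraries per time, and log2 changes ± SE. Of the 33 genes, 32 were tested. Of all genes tested, 18.8% were called higher and 20.3% were called lower at 7 days, with a median log2 change of -0.038. Centring each library on its median gene or quantile normalization moved that median by 0.084 and 0.089. The number of reads behind each value is unknown, because FPKM keeps no counts. One of the libraries, 3-day replicate 2, stood above the other 3-day libraries in the markers of several other cell types and in most of the synthesis genes, and each call it decides is given with and without it.

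At 7 days after injury, 9 of the 32 tested genes had fallen and 1 had risen. Those that fell were Pmvk, Fdps, Fdft1, Sqle and Srebf2 of the sterol branch and Acly, Me1, Fasn and Elovl6 of the fatty acid branch, and the gene that rose was the desaturase Fads1. The sterol branch had 5 of 23 tested genes lower, a share of 21.7% that lies close to the 20.3% of all genes, and 0 of 23 higher, beside 18.8% of all genes. By an unadjusted limma p under 0.05, 1 sterol gene was higher and 6 were lower, and by the q-values that the authors deposited, 1 was higher and 6 were lower. The fatty acid branch had 4 of 9 tested genes lower and 1 higher. The median log2 change was -0.072 in the sterol branch and -0.59 in the fatty acid branch, beside -0.038 over all genes tested. Within the fatty acid branch the median was -0.72 over the 4 tested genes of supply and palmitate synthesis and 0.16 over the 5 of elongation and desaturation. These medians are descriptions, and the difference between the branches was not tested.

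The counts moved when a library was left out, and so did those over all genes, which ran from 1697 to 2565 lower, beside 2645 with all libraries, and from 1572 to 2207 higher, beside 2453. Lower sterol genes numbered 2 without 3-day replicate 2, 3-day replicate 3, 7-day replicate 1 or 7-day replicate 2, and 3 without 7-day replicate 3. Lower fatty acid genes numbered 1 without 3-day replicate 2, 3-day replicate 3 or 7-day replicate 1, and 2 without 7-day replicate 2 or 3. Higher sterol genes numbered 2 without 3-day replicate 2, and higher fatty acid genes 2 without that library and 0 without any other single library. The 10 genes called with all libraries kept their direction in each of these fits. Without 3-day replicate 2, the fatty acid branch thus had 2 higher and 1 lower, and the sterol branch 2 and 2. Scaling moved the counts as well. Quantile normalization gave 1 higher and 3 lower sterol genes and 0 higher and 2 lower fatty acid genes, and centring on the median gene gave 2 and 4, and 2 and 2. Sqle, Pmvk and Me1 are the 3 of the 10 called genes whose call held in each of the 14 other limma settings.

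Markers of other cells moved in the same libraries. All 9 tested oligodendrocyte markers were called lower, and their summed level lay between 327 and 666 FPKM at 3 days and between 140.5 and 168 FPKM at 7 days. Astrocyte markers were lower in 5 of 6, neuron markers in 6 of 6, endothelial markers in 5 of 5, erythroid markers in 4 of 4, Schwann cell markers in 3 of 5 and fibroblast and pericyte markers in 4 of 6. None of the tested markers of these types was at 0 in all 7-day libraries. The 7 tested of 10 listed macrophage markers, which do not include Emr1 and Lyz2 (set aside) or Cd68 (not analysed here), summed to between 1303 and 1490 FPKM at 3 days and between 1373 and 1410 FPKM at 7 days, with 3 higher and 2 lower. Microglia markers summed to between 24.9 and 33.1 FPKM at 3 days and between 46.5 and 54.5 FPKM at 7 days, with 2 of 3 tested higher. Of 3 tested neutrophil markers 1 was higher and 1 lower, with Mpo at 0 in all 7-day libraries. Of 2 tested T cell markers 1 was higher, with sums of at most 2.88 FPKM. In such precipitated bulk RNA without input, fewer cells of a type, less RNA per cell and less untagged RNA carried through the precipitation cannot be told apart.

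The library with the highest oligodendrocyte sum, 3-day replicate 2 at 666 FPKM, was also the highest of the 3-day libraries in 24 of the 32 synthesis genes (75.0%), compared with 40.6% of all genes tested. Fads2, Fasn and Fdft1 are among them. The geometric mean on the log2(FPKM + 1) scale over the 9 fatty acid genes was 11.0, 16.3 and 13.0 FPKM at 3 days and 8.93, 10.6 and 9.40 FPKM at 7 days. Over the 23 sterol genes it was 9.25, 11.7 and 10.1 FPKM at 3 days and 9.31, 9.58 and 9.46 FPKM at 7 days. The times thus overlapped over the sterol branch as a whole and not over the fatty acid branch. Within the sterol branch, the times were apart over the 8 genes of the mevalonate and isoprenoid steps, at 10.2 FPKM or more against 9.36 FPKM or less. They were also apart over the 3 genes from squalene to lanosterol, at 9.47 FPKM or more against 7.83 FPKM or less. They overlapped over the 7 genes from lanosterol to cholesterol and over the 5 of sterol control and transport. Within the fatty acid branch, the times were apart only over the 4 supply and palmitate genes, at 15.8, 24.3 and 19.9 against 9.96, 13.1 and 9.35 FPKM. Over the 5 elongation and desaturation genes they overlapped, at 8.11, 11.8 and 9.22 against 8.18, 8.89 and 9.45 FPKM. Sqle varied only from 24.5 to 26.2 FPKM over the 3-day libraries, and without 3-day replicate 2 the log2 change was -1.08 for Sqle, -0.62 for Pmvk and -1.39 for Me1, each still called (limma adjusted p from 0.00459 to 0.0296). Without that library Fdps (-0.39), Fdft1 (-0.41), Srebf2 (-0.40), Acly (-0.30), Fasn (-0.40) and Elovl6 (-0.53) had smaller log2 changes of the same direction and were not called. The part of other cells' RNA in these genes was not tested.

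**Figure D1:**
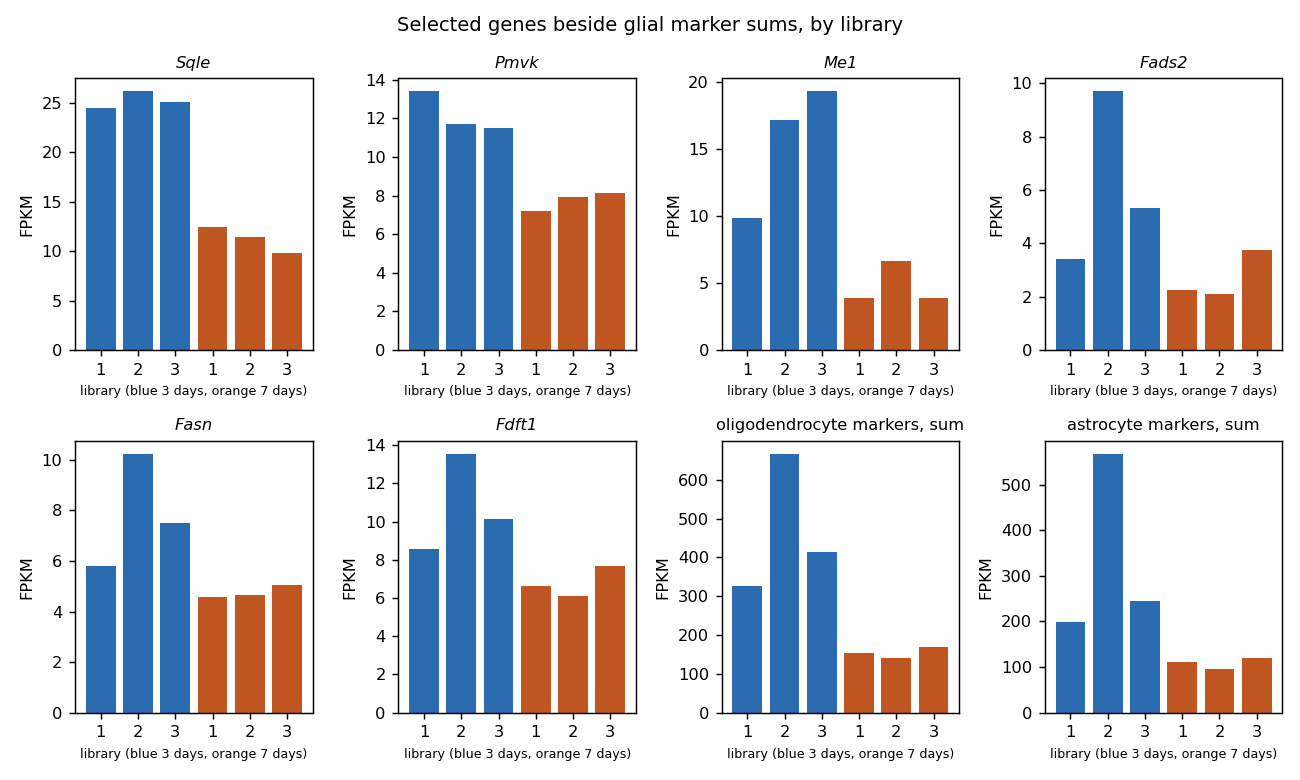
FPKM of 6 genes and summed FPKM of 9 oligodendrocyte and 6 astrocyte markers in each library, as bars from 0, blue for 3 days and orange for 7 days. Fads2, Fasn and Fdft1 peak in 3-day replicate 2 as the marker sums do, whereas over the 3-day libraries Sqle lies between 24.5 and 26.2 FPKM and Pmvk between 11.5 and 13.4 FPKM.

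**Figure D2:**
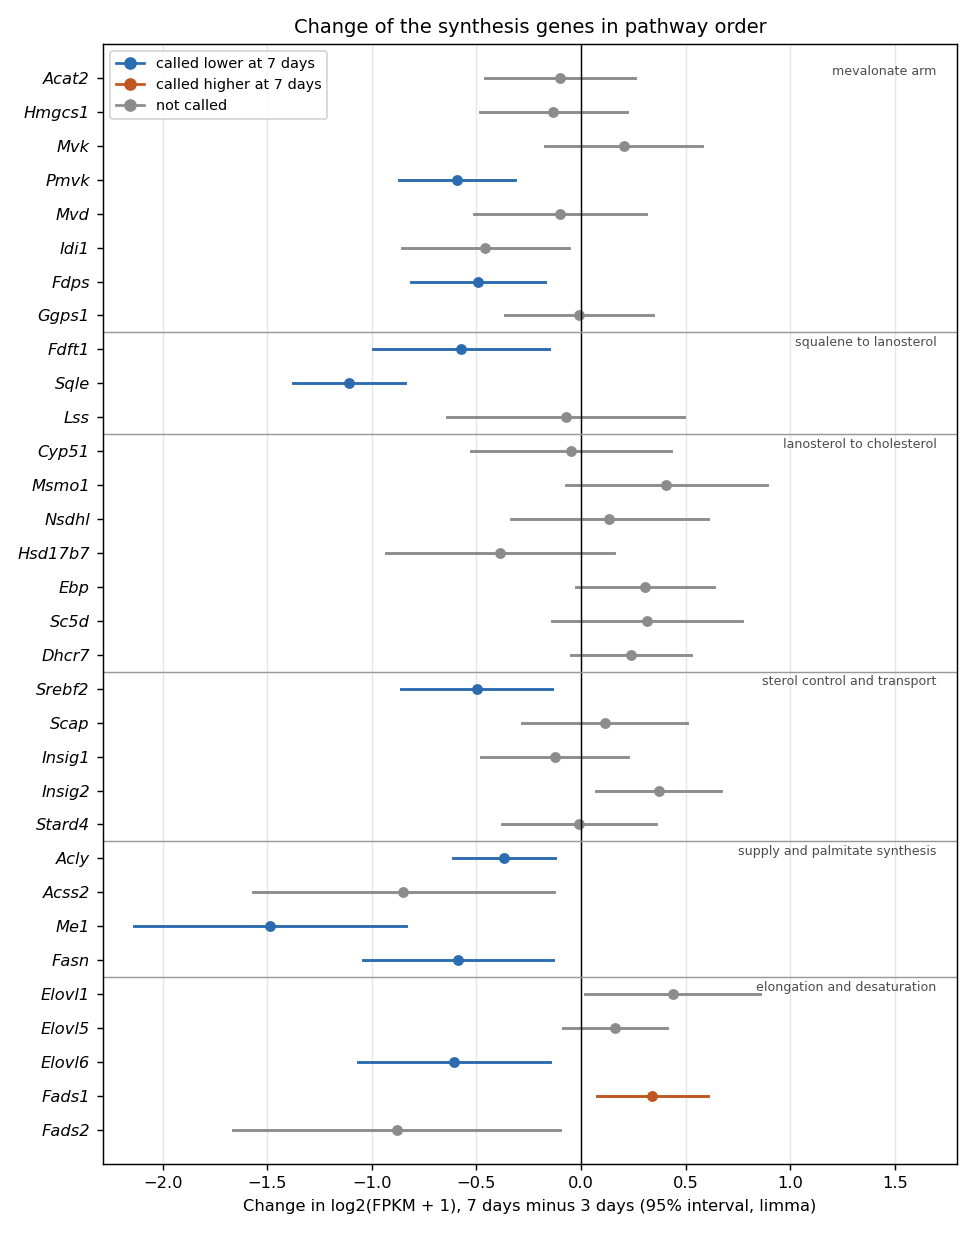
Change in log2(FPKM + 1) from 3 to 7 days for the 32 tested genes, in pathway order from top to bottom, with points for the limma estimate and bars for its 95% interval. Blue marks the 9 genes called lower, orange the 1 called higher (Fads1) and grey the 22 not called. The largest falls are Me1 at -1.49 and Sqle at -1.11.

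Promoter windows from RefSeq on GRCm38.p6, 250 bases before to 50 after a start and more than 1 for some genes, were found for 29 of the 34 listed genes, 20 sterol and 9 fatty acid genes. Those of Sqle, Fdft1, Fdps, Stard4 and Fads1 were not used here. A CCAAT box (CCAAT on either strand), which is bound by the factor NF-Y, was found in the windows of 18 of 20 sterol genes and 6 of 9 fatty acid genes, beside 41.1% of all 27025 genes with a window. A GC box (GGGCGG on either strand), known as a site of Sp1, was found in 18 of 20 sterol and 5 of 9 fatty acid genes, beside 38.2% of all. The sterol response element, searched as TCACNCCAC on either strand, was found in 1 of the 29, Hmgcs1, beside 1.44% of all genes. It begins 137 bases before the start and overlaps none of the other motifs. The window of Hmgcs1 is shown for holding both elements, and those of Idi1, Msmo1 and Srebf2, chosen after their values were seen, for comparison of a gene lower in value, a gene higher in value and the regulator. Capitals mark CCAAT, or ATTGG on the other strand, and the sterol response element in the 250 bases before the start.
Hmgcs1, chr13:119690101-119690350, plus strand: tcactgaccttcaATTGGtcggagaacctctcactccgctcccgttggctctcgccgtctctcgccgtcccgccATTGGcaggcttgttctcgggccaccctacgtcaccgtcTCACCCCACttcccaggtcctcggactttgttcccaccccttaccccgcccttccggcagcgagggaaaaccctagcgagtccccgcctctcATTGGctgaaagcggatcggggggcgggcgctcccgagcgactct
Idi1, chr13:8885356-8885605, plus strand: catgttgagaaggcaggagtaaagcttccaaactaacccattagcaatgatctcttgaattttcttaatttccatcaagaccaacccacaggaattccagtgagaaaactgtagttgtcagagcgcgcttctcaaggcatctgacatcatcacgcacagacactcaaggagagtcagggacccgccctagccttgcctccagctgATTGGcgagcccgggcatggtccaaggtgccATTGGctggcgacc
Msmo1, chr8:64733579-64733828, minus strand: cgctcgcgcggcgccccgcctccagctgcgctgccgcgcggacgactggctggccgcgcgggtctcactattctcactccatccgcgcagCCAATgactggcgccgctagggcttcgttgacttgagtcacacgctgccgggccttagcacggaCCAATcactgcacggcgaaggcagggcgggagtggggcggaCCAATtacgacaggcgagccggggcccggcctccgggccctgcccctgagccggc
Srebf2, chr15:82147019-82147268, plus strand: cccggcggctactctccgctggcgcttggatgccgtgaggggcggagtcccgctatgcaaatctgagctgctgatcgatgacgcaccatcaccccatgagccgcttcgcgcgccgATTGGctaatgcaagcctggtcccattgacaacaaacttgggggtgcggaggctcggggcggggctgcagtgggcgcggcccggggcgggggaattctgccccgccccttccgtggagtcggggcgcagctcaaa
Before the start, Hmgcs1 holds 3 CCAAT boxes, Msmo1 3, Idi1 2 and Srebf2 1. Genes with CCAAT boxes are thus found among those that fell, those that were not called and those with a change above 0, and a match of letters is not a shown binding site. The search allowed no mismatch, so a missing match does not show that a gene lacks a sterol response element.

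The first steps, from acetoacetyl-CoA to lanosterol, held 4 of the 5 sterol genes that fell. Counted with Ggps1, which lies on a side branch, 10 of their 11 changes were below 0, beside 52.4% of all genes tested. The change of Ggps1, -0.0095, is among the 10. With quantile normalization 7 of the 11 were below 0, beside 46.0% of all genes, and with median centring 8, beside 47.2%. The times overlapped in 6 of the 11. Sqle, the squalene epoxidase that adds the first oxygen to squalene, measured 24.5, 26.2 and 25.1 FPKM in the 3-day libraries and 12.4, 11.4 and 9.78 FPKM in the 7-day libraries. All 3-day values lay above all 7-day values, and the 3 libraries of each time lay close together. The mean fell from 25.2 ± 0.873 to 11.2 ± 1.33 FPKM, which was 2.25-fold (log2 -1.11 ± 0.11; adjusted p = 7.81e-04; mm10 chromosome 15, 59315072 to 59332094). Its adjusted p ran from 6.72e-04 to 0.00589 over the other settings.

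Pmvk, the phosphomevalonate kinase, measured 13.4, 11.7 and 11.5 FPKM at 3 days and 7.19, 7.94 and 8.16 FPKM at 7 days. The times did not overlap, and the log2 change was -0.59 ± 0.12 (adjusted p = 0.00829, and from 0.00645 to 0.0342 in the other settings). The table places Pmvk at mm10 chromosome 3, 89467385 to 89469005, which is the last part of the GENCODE M21 gene at 89454541 to 89469013. Its value may thus describe only some of the gene's transcripts. Fdps, the synthase of farnesyl diphosphate, measured 18.1, 24.6 and 21.9 FPKM at 3 days and 14.5, 13.8 and 16.4 FPKM at 7 days (log2 -0.49 ± 0.14; adjusted p = 0.0271). Every 7-day value was below every 3-day value, but the call was lost without 3-day replicate 2 or 3 and without 7-day replicate 1 or 2, with an adjusted p of up to 0.0909.

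Fdft1, the squalene synthase, measured 8.55, 13.5 and 10.1 FPKM at 3 days and 6.61, 6.09 and 7.69 FPKM at 7 days (log2 -0.57 ± 0.18; adjusted p = 0.0402). Only the omission of 3-day replicate 1 kept the call, while quantile normalization and the omission of each of the other 5 libraries lost it, with an adjusted p of up to 0.122. Exons of Fdft1 and of Ctsb, the cathepsin B gene on the other strand, share up to 774 bases in GENCODE M21, and whether the authors counted by strand is not given in the sources used here. Ctsb was listed at 2779 to 3715 FPKM in the 3-day libraries and at 0 in all 7-day libraries, so Fdft1 is an uncertain value. Exons of Fdps overlap those of the predicted gene Gm43738 on the other strand by 197 bases, while no other gene's exons overlap those of Sqle or Pmvk.

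Idi1, which isomerises the isoprenoid unit, measured 6.45, 9.46 and 6.41 FPKM at 3 days and 5.19, 4.78 and 5.25 FPKM at 7 days. The times did not overlap and the log2 change of -0.46 ± 0.17 was not called (adjusted p = 0.0684, and from 0.0595 to 0.193 in the other settings), while the authors' deposited table gives a q-value of 0.0197. Hmgcs1, which makes HMG-CoA, was the most abundant sterol gene at 51.2 ± 6.19 and 46.9 ± 8.68 FPKM, and its times overlapped (log2 -0.13, 95% interval -0.48 to 0.22). Ggps1, the synthase of geranylgeranyl diphosphate for protein anchoring, stood at 38.2 ± 6.67 and 37.7 ± 4.10 FPKM, with an interval of -0.36 to 0.34. Its deposited locus, mm10 chromosome 13, 14001112 to 14063329, reaches beyond the GENCODE M21 gene at 14050659 to 14063488. The mevalonate kinase Mvk, the decarboxylase Mvd, the thiolase Acat2 and the lanosterol synthase Lss had changes between -0.10 and 0.20, and their times overlapped. Lss reached an interval of -0.64 to 0.49, the widest of these.

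Of 7 tested genes between lanosterol and cholesterol, 5 had a change above 0 and 2 below, beside 52.4% of all genes tested below 0. Their median log2 change was 0.24. The number called was 0, beside 18.8% of all genes tested called higher and 20.3% called lower. By an unadjusted limma p under 0.05 the count was 0 as well, and by the authors' deposited q-value it was 0. Msmo1, the sterol methyl oxidase listed under its older symbol Sc4mol, measured 21.9, 41.2 and 31.1 FPKM at 3 days and 39.0, 43.2 and 40.1 FPKM at 7 days. The 3-day libraries spread widely and 3-day replicate 2 reached into the 7-day range (log2 0.41 ± 0.21; adjusted p = 0.15). Without that library the adjusted p was 0.0333, in a range from 0.0333 to 0.487 over the settings.

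Sc5d, the sterol desaturase, measured 6.57, 11.6 and 8.07 FPKM at 3 days and 11.7, 10.2 and 10.7 FPKM at 7 days (adjusted p = 0.222, and 0.0354 without 3-day replicate 2, in a range from 0.0354 to 0.521). Ebp, the sterol isomerase, measured 30.8, 38.4 and 43.1 FPKM at 3 days and 41.6, 47.0 and 50.1 FPKM at 7 days (log2 0.31 ± 0.14; adjusted p = 0.12, and 0.0482 with median centring, in a range from 0.0468 to 0.66). Dhcr7, the last reductase of one route to cholesterol, measured 7.07, 8.63 and 8.33 FPKM at 3 days and 9.82, 9.15 and 9.82 FPKM at 7 days. Its times did not overlap, and its log2 change of 0.24 ± 0.12 was not called (adjusted p = 0.158). The demethylase Cyp51 stood at 20.4 ± 6.42 and 19.2 ± 1.98 FPKM, the dehydrogenase Nsdhl at 7.83 ± 2.06 and 8.56 ± 1.17 FPKM, and the reductase Hsd17b7 at 3.57 ± 1.24 and 2.44 ± 0.539 FPKM. In these 3 genes the times overlapped, and their 3-day maximum was in 3-day replicate 2. The deposited locus of Cyp51, mm10 chromosome 5, 4054969 to 4104433, reaches beyond the GENCODE M21 gene at 4081145 to 4104746. Exons of Cyp51 overlap those of Akap9 on the other strand by up to 166 bases.

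**Figure D3:**
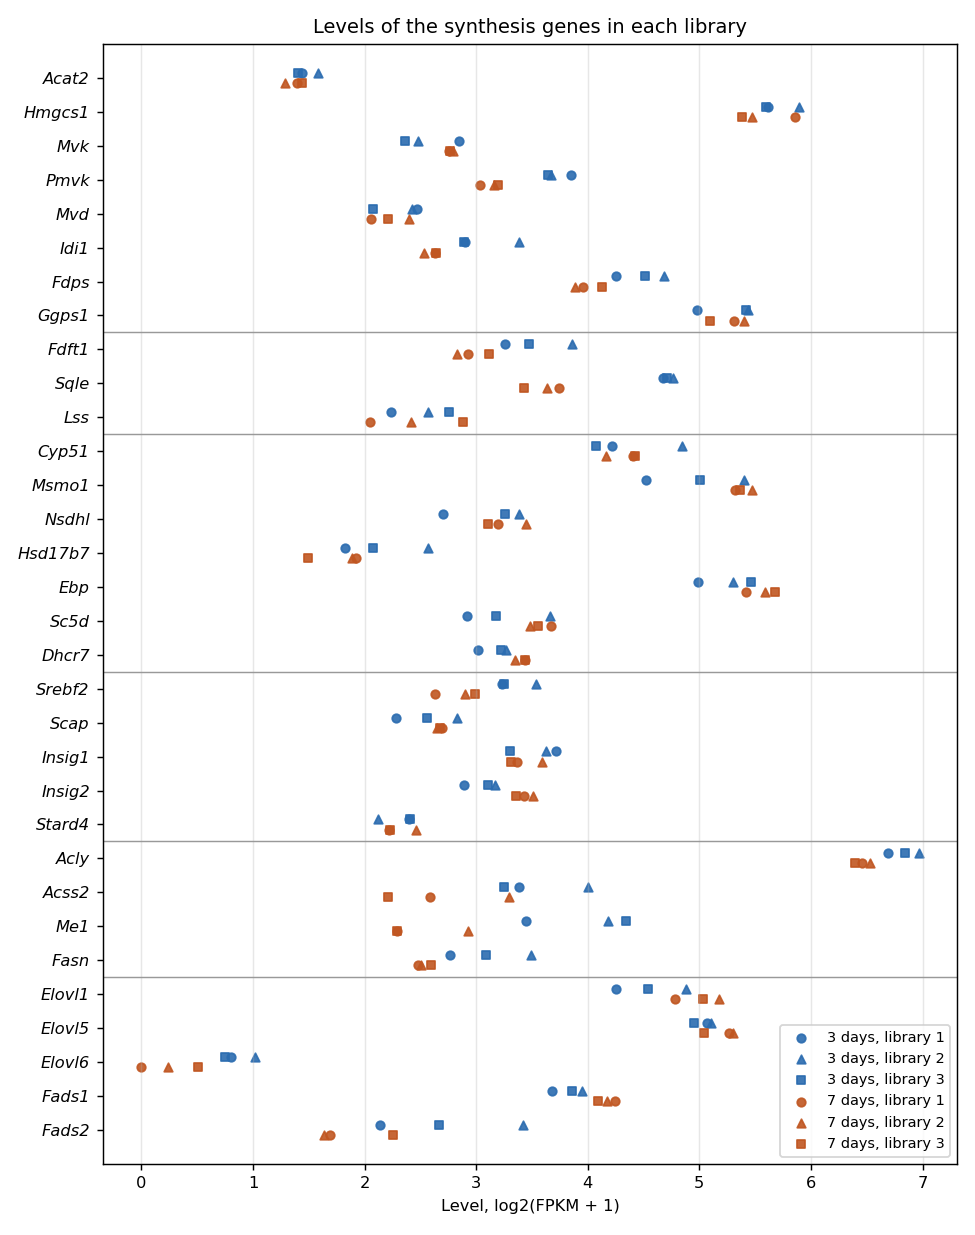
Level of each tested gene in each library as log2(FPKM + 1), in pathway order, with blue for 3 days, orange for 7 days and a marker shape for each library. Sqle and Pmvk separate the times with little spread, while the blue triangles of 3-day replicate 2 lie furthest right of the 3-day values in 24 of the 32 genes.

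Of the 5 genes of sterol control and transport, 1 fell. Srebf2, the transcription factor that drives sterol genes, measured 8.36, 10.6 and 8.53 FPKM at 3 days and 5.19, 6.45 and 6.94 FPKM at 7 days (log2 -0.50 ± 0.15; adjusted p = 0.038; mm10 chromosome 15, 82147245 to 82205372). The times did not overlap, but the call was lost without each single library in turn (adjusted p from 0.0525 to 0.116), with quantile normalization and with centring on the median gene. Insig2, which retains the SREBP complex in the endoplasmic reticulum, measured 6.44, 8.01 and 7.63 FPKM at 3 days and 9.75, 10.4 and 9.21 FPKM at 7 days. All 7-day values were above all 3-day values, and the log2 change of 0.37 ± 0.13 lay just past the threshold (adjusted p = 0.0538, and from 0.0251 to 0.153 in the other settings), and was called with genes at a mean of 1 FPKM or more, with quantile normalization and with median centring. The authors' deposited table gives Insig2 a q-value of 0.048.

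Insig1, the other retention protein and itself a target of SREBP, measured 12.1, 11.3 and 8.89 FPKM at 3 days and 9.31, 11.1 and 8.94 FPKM at 7 days, and its times overlapped (log2 -0.12, 95% interval -0.48 to 0.23). Scap, the escort protein, measured 3.87, 6.12 and 4.89 FPKM at 3 days and 5.46, 5.27 and 5.38 FPKM at 7 days (95% interval -0.28 to 0.51). The table places Scap at mm10 chromosome 9, 110376573 to 110384959, the last part of the GENCODE gene at 110333288 to 110384950. Stard4, a cytosolic sterol carrier, stood at 3.98 ± 0.544 and 3.94 ± 0.476 FPKM, with an interval of -0.38 to 0.36.

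In the fatty acid branch, 3 of the 4 tested genes of substrate supply and palmitate synthesis fell. Me1, the malic enzyme that supplies NADPH, measured 9.89, 17.2 and 19.3 FPKM at 3 days and 3.90, 6.62 and 3.89 FPKM at 7 days. The times did not overlap, and the mean fell 3.22-fold from 15.5 ± 4.94 to 4.80 ± 1.57 FPKM (log2 -1.49 ± 0.28; adjusted p = 0.00631, and from 0.00458 to 0.0296 in the other settings; mm10 chromosome 9, 86581091 to 86695721). Me1 is the only one of the 3 genes called in each limma setting that the authors' filtered table leaves out. Acly, the ATP citrate lyase that makes cytosolic acetyl-CoA, was the most abundant of all the tested synthesis genes. It measured 102, 124 and 114 FPKM at 3 days and 87.0, 91.6 and 82.9 FPKM at 7 days (log2 -0.37 ± 0.10; adjusted p = 0.028).

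Acly lost its call with median centring, with a constant prior variance and when any library other than 3-day replicate 1 was left out (adjusted p of up to 0.0947), and the authors' deposited table gives it a q-value of 0.154. Fasn, the fatty acid synthase, measured 5.80, 10.2 and 7.51 FPKM at 3 days and 4.58, 4.67 and 5.04 FPKM at 7 days (log2 -0.59 ± 0.19; adjusted p = 0.0476; mm10 chromosome 11, 120810668 to 120824274). Its 7-day libraries lay close together below all 3-day libraries. Quantile normalization ended the call, as did leaving out each library other than 3-day replicate 1, with an adjusted p of up to 0.119. The deposited locus of Fasn lacks the last part of the GENCODE M21 gene, which lies at 120805846 to 120824547 on the minus strand. Acss2, which makes acetyl-CoA from acetate, measured 9.47, 15.0 and 8.52 FPKM at 3 days and 5.01, 8.81 and 3.62 FPKM at 7 days. Here 7-day replicate 2 reached above the lowest 3-day value, and the change was not called (log2 -0.85 ± 0.31; adjusted p = 0.0629, and 0.0275 without that library, in a range from 0.00822 to 0.186). The deposited locus of Acss2, mm10 chromosome 2, 155490728 to 155561187, begins before the GENCODE M21 gene at 155517948 to 155585724 and ends within it.

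Acaca, the acetyl-CoA carboxylase that commits carbon to fatty acids, could not be judged. Its library values were 31.1, 34.9 and 34.7 FPKM at 3 days and 30.8, 27.1 and 40.2 FPKM at 7 days, whereas the means in the authors' deposited table are 5.20 and 3.55 FPKM. With its row kept in the fit, the log2 change of the library values was -0.053 ± 0.15, while the authors' deposited log2 change is -0.55 with a q-value of 0.0589. The library values thus do not average to the deposited means, and Acaca was left out of all counts.

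Elongation and desaturation genes moved in both directions. Fads1, the delta-5 desaturase of polyunsaturated fatty acids, measured 11.8, 14.5 and 13.5 FPKM at 3 days and 17.99, 17.0 and 16.1 FPKM at 7 days, with no overlap (log2 0.34 ± 0.11; adjusted p = 0.0482; mm10 chromosome 19, 10182910 to 10196873). It lost the call with quantile normalization, with a constant prior variance and when any library other than 3-day replicate 2 was left out (adjusted p of up to 0.143). Its neighbour Fads2, the delta-6 desaturase at chromosome 19, 10062845 to 10101637, measured 3.40, 9.70 and 5.34 FPKM at 3 days and 2.23, 2.11 and 3.76 FPKM at 7 days. The 3-day libraries spread widely, and the change was not called (log2 -0.88 ± 0.33; adjusted p = 0.0725, and 0.0286 without 3-day replicate 1, in a range from 0.0286 to 0.188). The authors' deposited table gives Fads2 a q-value of 0.0101.

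Elovl6, the elongase that extends palmitate, was the least abundant of the tested genes. It measured 0.740, 1.03 and 0.684 FPKM at 3 days and 0.181 and 0.418 FPKM in 7-day replicates 2 and 3, and was listed at 0 in 7-day replicate 1 (log2 -0.61 ± 0.20; adjusted p = 0.0436). A pseudocount of 0.1 and both changes of scaling ended the call (adjusted p of up to 0.653), as did leaving out each library other than 7-day replicate 3 (up to 0.143), and the authors' q-value in the deposited table is 0.149. Elovl1, the elongase of very long saturated chains, measured 18.1, 28.5 and 22.3 FPKM at 3 days and 26.5, 35.1 and 31.7 FPKM at 7 days, with overlap (log2 0.44 ± 0.18; adjusted p = 0.0881, and 0.0355 without 3-day replicate 2, in a range from 0.021 to 0.271). Elovl5, the elongase of polyunsaturated chains, stood at 32.0 ± 1.87 and 36.0 ± 3.50 FPKM, with a 95% interval of -0.09 to 0.41.

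Ratios within a library do not depend on how libraries were scaled to each other. They were chosen after the values were seen and are given without a test. Sqle over Msmo1 lay between 0.635 and 1.11 at 3 days and between 0.244 and 0.318 at 7 days. Insig1 over Insig2 lay between 1.17 and 1.88 at 3 days and between 0.955 and 1.06 at 7 days. Fads1 over Fads2 lay between 1.49 and 3.48 at 3 days and between 4.28 and 8.09 at 7 days. The ranges of the times did not overlap in these 3 pairs, which is how they came to be chosen and supports nothing further.

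**Figure D4:**
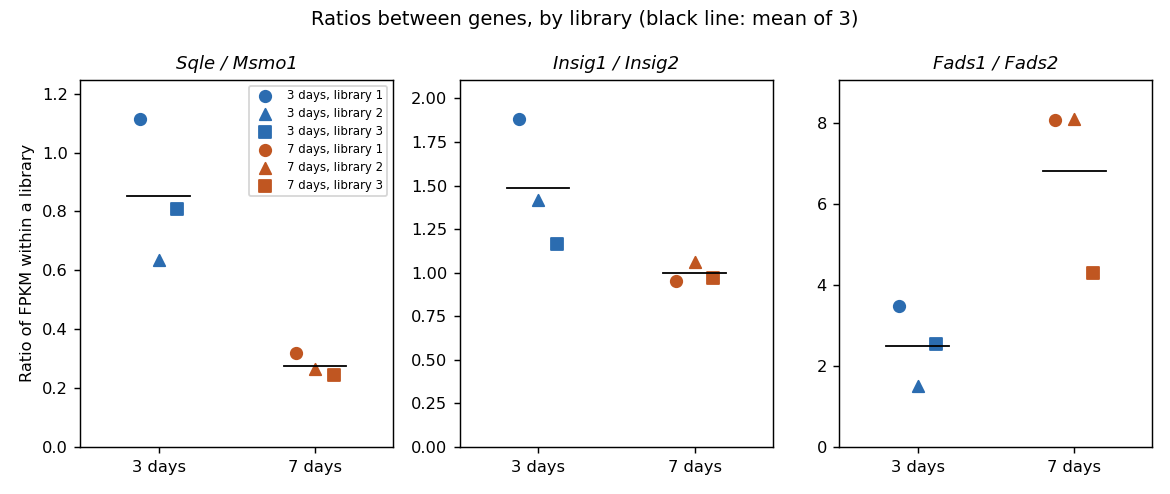
Ratio of FPKM between 2 genes within each library, with blue for 3 days, orange for 7 days, a marker shape for each library and a black line at the mean of 3. In each of the 3 panels the 3-day and 7-day points are apart, and Sqle over Msmo1 lies at 0.635 or more at 3 days and at 0.318 or less at 7 days.

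Genes of the wider sterol pathway that are not on the list of 34 were read from a fixed list of 16. Of these, 14 were tested, 6 rose (42.9%, beside 18.8% of all genes tested) and 2 fell (14.3%, beside 20.3%). Those described here include members of the SREBP machinery and of NF-Y. Mbtps2, the protease that cuts SREBP in the membrane, rose from 9.18 ± 0.373 to 18.3 ± 0.918 FPKM (log2 0.92 ± 0.10; adjusted p = 0.00103). Mylip, a ubiquitin ligase induced by the sterol-sensing LXR factors, rose from 32.2 ± 5.36 to 88.9 ± 1.81 FPKM. Rnf139, a ubiquitin ligase of the endoplasmic reticulum, rose from 17.3 ± 1.46 to 24.1 ± 3.19 FPKM. It lost its call with quantile normalization and without 3-day replicate 1 or 3 or 7-day replicate 1 or 2 (adjusted p of up to 0.0944). Nfyb, a subunit of the CCAAT-binding factor NF-Y, rose from 10.4 ± 0.0777 to 14.9 ± 1.07 FPKM, and Cyb5r3, an electron donor for sterol oxidation, from 31.2 ± 0.125 to 42.7 ± 3.59 FPKM, a call lost with quantile normalization (adjusted p = 0.1). Srebf1, the SREBP gene best known for fatty acid genes, stood at 9.52 ± 0.650 and 10.4 ± 0.0763 FPKM (95% interval -0.14 to 0.37).

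Of 25 further genes of fatty acid synthesis, activation and NADPH supply, 23 were tested, 5 rose and 6 fell. These shares, 21.7% higher and 26.1% lower, lie close to the 18.8% and 20.3% of all genes tested. Scd1, the stearoyl-CoA desaturase, fell from 15.3 ± 4.15 to 4.71 ± 0.395 FPKM (log2 -1.48 ± 0.19). Its homologue Scd2 stood at 114 ± 33.9 and 146 ± 9.77 FPKM and was not called (log2 0.38 ± 0.19, limma adjusted p = 0.148). Scd2 measured 93.6, 153 and 96.0 FPKM at 3 days and 151, 134 and 152 FPKM at 7 days. Without 3-day replicate 2 it was called higher (limma adjusted p = 0.00863, in a range from 0.00863 to 0.553 over the settings). The elongases Elovl4 and Elovl7 fell, Elovl4 from 2.53 ± 1.31 to 0.762 ± 0.164 FPKM and Elovl7 from 5.85 ± 2.58 to 1.10 ± 0.973 FPKM. Elovl4 lost its call with quantile normalization and when any of the 7-day libraries was left out, and Elovl7 without 3-day replicate 2 or 3 or 7-day replicate 2, with an adjusted p of up to 0.234 and 0.055. Ptplb, a dehydratase of the elongation cycle, fell from 12.2 ± 2.42 to 7.62 ± 0.577 FPKM, a call that leaving out each library other than 3-day replicate 1 ended (adjusted p of up to 0.075). The sugar-sensing factor Mlxipl, below 1 FPKM on average at both times, was the other called lower beside the NADPH source Pgd. Its call was lost with quantile normalization (adjusted p = 0.575) and without 3-day replicate 1 or any of the 7-day libraries (up to 0.112).

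Acsl5 and Acsl1, which activate fatty acids to CoA esters, rose, Acsl5 from 48.1 ± 7.43 to 73.8 ± 3.00 FPKM and Acsl1 from 9.18 ± 1.07 to 14.8 ± 2.97 FPKM. The call of Acsl1 was lost without 3-day replicate 1 or 2 or 7-day replicate 2 or 3 (adjusted p of up to 0.073). Mid1ip1, a partner of acetyl-CoA carboxylase, rose from 28.1 ± 5.43 to 51.9 ± 5.34 FPKM, and Mcat, of mitochondrial fatty acid synthesis, from 2.10 ± 0.277 to 3.96 ± 0.279 FPKM. Idh1, a cytosolic source of NADPH, rose 2.45-fold.

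Of the 13042 genes tested, 26.8% had all 7-day values above all 3-day values and 28.6% had all below. Among the 32 synthesis genes these numbers were 3 and 10. The 3 genes whose times did not overlap and that were not called were Idi1, Dhcr7 and Insig2. Levels ranged from a mean over the 6 libraries of 100.2 FPKM for Acly to 0.508 FPKM for Elovl6, and 31 of the 32 genes had a mean of 1 FPKM or more.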

How the data were processed

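RNA from RiboTag precipitates was sequenced after ScriptSeq v2 library preparation, per the labels' protocols. TopHat2 2.0.12, Cufflinks 2.2, Cuffdiff 2.2.1 and the build mm10 are named, per the submitters' processing notes, with no role or order. The authors deposited FPKM per library, their mean FPKM per time, a log2 fold change, and a p-value and q-value per gene, per the file headers; how libraries were scaled to each other, strand use and the filter behind the second, filtered table are not given in the sources used here. The deposited test score was not used.

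Of 13960 rows, 918 were set aside: 45 for a test status that was not OK, 838 because the libraries average to a value more than 1% away from the authors' mean, 14 because they are listed at 0 while another library holds at least 100 FPKM, and 32 because their symbol occurs more than once (some meet several criteria). The other 13042 genes were fitted as log2(FPKM + 1) with limma 3.58.1 (R 4.3.3), mean-dependent prior variance, two-sided, without a block. With 3 libraries a time, exact permutation reaches p = 0.1 at the lowest, and each call thus needs the variance estimate that limma pools over genes. The log scale with its pseudocount of 1 understates changes of low genes. The script was tested on simulated data. Overlaps of exons were read from GENCODE M21, and motifs were searched with Python 3.11.15 (numpy 2.4.6, pandas 2.3.3, matplotlib 3.10.9).

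The genes, the lists and the tests were chosen with earlier results of these data known. By rule, each called gene, each gene whose times do not overlap, the SREBP regulators, Acaca and Fasn are given in every library; other genes given so, and the promoters other than that of Hmgcs1, were chosen after their values were seen. Called genes of the further lists are given where the larger mean is 1 FPKM or more, except that some genes of the sterol list are not reported here. Alternatives were another pseudocount, a filter on low values, other scalings and priors, rows kept, a replicate block, each library left out and the authors' q-value.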

Additional observations from a re-analysis of the deposited data

How the results depend on the processing

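Of 479 values of the 32 tested genes under other settings (the authors' q-value included), 388 kept direction and side of the threshold, 52 of 7 genes lost the call, 17 of 8 genes gained one and 22 of 9 genes, none of them called, changed sign. Of 19 called genes of the further lists, 284 values were computed: 33 of 8 genes lost the call and 0 changed sign. The cause was not tested. Depth is unknown, so counting error cannot be separated from other spread.

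Sterol genes called higher, 0 as reported, numbered 1 with a mean of 1 FPKM or more, quantile normalization, the replicate block or the authors' q-value and 2 with median centring, and 0 to 2 leaving out each library. Lower sterol genes, 5 as reported, numbered 3 with quantile normalization, and 2 to 4 leaving out each library. Fatty acid genes higher, 1 as reported, numbered 0 with quantile normalization or a constant prior variance and 2 with median centring or the authors' q-value, and 0 to 2 leaving out each library. Fatty acid genes lower, 4 as reported, numbered 2 with quantile normalization or median centring, and 1 to 4 leaving out each library. All genes called, 2453 higher and 2645 lower, ran from 1572 to 2207 and from 1697 to 2565 leaving out each library. The sterol median was 0.0891 with quantile normalization, and -0.14 to -0.030 leaving out each library. The sterol minus fatty acid difference of medians, 0.52 as reported, was 0.41 with genes at 1 FPKM or more, 0.63 with the authors' log2 changes and 0.35 to 0.54 leaving out each library.

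Signs that turned were, with quantile normalization, Acat2 0.42, Mvd 0.19, Lss 0.16, Stard4 0.28 and Elovl5 -0.0264. With median centring they were Ggps1 0.0749, Lss 0.0122, Cyp51 0.0373 and Stard4 0.0742. Leaving out each library gave Ggps1 -0.16 to 0.0767, Lss -0.287 to 0.127, Cyp51 -0.198 to 0.186, Nsdhl -0.0701 to 0.272, Scap -0.0236 to 0.251 and Stard4 -0.104 to 0.0402.

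The labels do not say whether a shared replicate number marks anything that libraries share. The correlations of deviations from the time means were 0.0995, 0.00545 and 0.00465 for same-numbered libraries. Between differently numbered libraries of the 2 times they ran from -0.0517 to 0.0428. With the replicate block, 4 sterol genes were lower and 3 fatty acid genes were lower. Fdft1, Fasn, Elovl6, Fads1 and, of the further genes, Mlxipl were then not called, and Ebp, Acss2 and Elovl1 were.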

Other observations

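Enzymes that supply NADPH for both branches went in different directions. The malic enzyme Me1 fell from 15.5 ± 4.94 to 4.80 ± 1.57 FPKM and the pentose phosphate dehydrogenase Pgd from 129 ± 5.46 to 87.9 FPKM, with 81.8 to 93.8 FPKM in the 7-day libraries (limma adjusted p = 0.0047). The cytosolic isocitrate dehydrogenase Idh1 measured 112, 128 and 136 FPKM at 3 days and 287, 282 and 349 FPKM at 7 days, a 2.45-fold rise (log2 1.28 ± 0.13; limma adjusted p = 6.99e-04). G6pdx, the first enzyme of the pentose phosphate pathway, measured 21.5 to 26.7 FPKM at 3 days and 22.9 to 23.9 FPKM at 7 days and was not called (95% interval -0.34 to 0.18). The 4 genes were put side by side after their values were seen.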
